A study of Homo sapiens with 6 samples.

Results

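The mitochondrial protein import machinery was examined in HK-2 cells with and without knockdown of PARP1. Its members were chosen by gene symbol and gene type: protein-coding genes whose symbols begin with TIMM or TOMM and a number, plus 15 named genes of sorting, folding and processing, among the genes listed in the deposited count table. Of 30403 listed genes, 40 met this rule, and 38 of them were among the 16040 genes with enough reads for a test. One gene left untested was TOMM20L, with at most 1 read in a library, and the other was a second entry for TIMM10B (ENSG00000265264) with at most 3. Every gene in the table had been listed for having reads, and that is the only measured value the choice of members used. The group was put forward with results of these libraries known, so its counts and medians below are a description and support nothing about the group as a whole.

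HK-2 is an immortalised line of human renal proximal tubule epithelium. Cells were transfected with a plasmid for an shRNA against PARP1 (shPARP1, 3 libraries) or for a control shRNA (shCtrl, 3 libraries), with the same lipid reagent, and were harvested after 48 h without further treatment or selection named in the labels. The product of PARP1 is a nuclear enzyme that adds chains of ADP-ribose to proteins at DNA breaks and at some genes. The cells were transfected as a population, so a library mixes cells that took up the plasmid with cells that may not have, and fewer cells of a kind cannot be told apart from less RNA per cell. The labels number the libraries of a group without saying that they came from separate cultures, so p-values rest on a spread among libraries that can be technical.

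Nearly all mitochondrial proteins are encoded in the nucleus, made in the cytosol and imported. Precursors are recognised by receptors of the TOM complex on the outer membrane and pass through its channel. From there the SAM complex places barrel proteins in the outer membrane, a disulfide relay and the small TIM chaperones serve the space between the membranes, the TIM22 complex inserts carrier proteins in the inner membrane, and the TIM23 complex with its motor moves proteins with a presequence into the matrix. There the presequence is cut off and the protein is folded by chaperonins. Proximal tubule cells are rich in mitochondria, which power solute reabsorption.

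Most import genes were higher after PARP1 knockdown, from the outer membrane channel to the matrix motor, while the receptor gene TOMM20 was lower and the processing and insertion genes had log2 fold changes of -0.03 to 0.15. A gene was called where its Benjamini-Hochberg adjusted p over all 16040 genes was under 0.05 in edgeR's quasi-likelihood test, with no minimum fold. By that measure 31 of the 38 tested members were called higher, 1 was called lower and 6 were not called. Among all tested genes 27.3% were called higher and 28.5% lower. At least 2-fold higher were 4 members (TOMM22, TIMM8B, TOMM34 and HSPE1), where 2.41% of all tested genes were. In 30 members the lowest shPARP1 library lay above the highest shCtrl library, where 29.7% of all tested genes did so. In TOMM20 the order was the opposite, and in 7 members the groups overlapped. The median log2 fold change, shPARP1 over shCtrl, was 0.44 over the members and -0.0073 over all tested genes. Taken by library, the median member stood 0.43, 0.43 and 0.45 above its shCtrl mean on the log2 scale in the 3 shPARP1 libraries. All log2 fold changes below have this direction, and each adjusted p is from the same edgeR test.

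**Figure D1:**
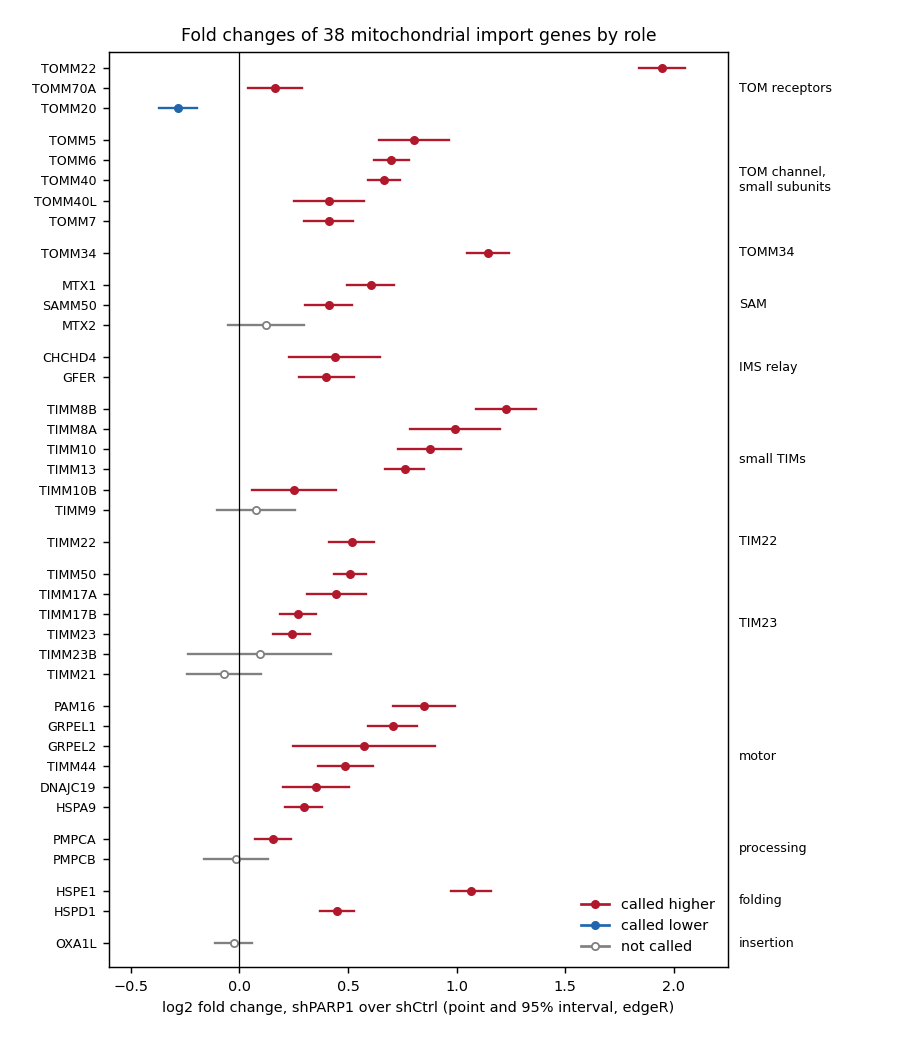
Log2 fold change of each of the 38 tested import genes, shPARP1 over shCtrl (x axis), with genes down the page in groups by role; points are edgeR estimates and bars their 95% intervals (3 libraries per group; IMS, intermembrane space). TOMM22 stands farthest right at 1.95, and TOMM20 is the only gene called lower, at -0.28.

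The knockdown was seen in each library. PARP1 itself had 26.9, 26.2 and 28.8 CPM (counts relative to the library's total, scaled by the TMM method) in shPARP1 libraries, against 262, 263 and 259 CPM in shCtrl libraries, a log2 fold change of -3.26 (SE 0.04, adjusted p = 1.7e-51). Library totals were 29387853 to 32809303 counts in shPARP1 and 24429683 to 26269194 in shCtrl, so all 3 knockdown libraries were deeper. In counts thinned to the smallest total, 30 members were called higher, as were 4281 genes over all tested. Transcripts encoded in mitochondria took 9.94% to 10.8% of counts in shPARP1 and 12.03% to 13.1% in shCtrl. With those transcripts left out of the scaling, 31 members were called higher, as were 4363 genes over all tested. Over all tested genes, the median log2 fold change went down with exon length, at 0.18 in the fifth of genes with the least exon sequence and -0.12 in the fifth with the most. Members were short, with a median exon length of 3284 bases against 4491 over all tested genes. With this trend and that of GC content removed, 29 members were called higher and 2 lower, and their median was 0.43, where 30.6% of all tested genes were called higher. Under that correction TIMM10B and TIMM23 lost their calls, and MTX2, TIMM9 and OXA1L changed sign.

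The receptors of the TOM complex did not move together. TOMM22 (ENSG00000100216, chr22:38681948-38685421, plus strand, GRCh38) encodes the central receptor, which also links the channels to each other, and had 89, 92 and 88.7 CPM in shPARP1 libraries, against 22.2, 24.5 and 23.3 CPM in shCtrl libraries. Its groups lay far apart, with a 3.85-fold higher mean level in shPARP1 and a log2 fold change of 1.95 (SE 0.05, adjusted p = 7.7e-37). TOMM20 (ENSG00000173726, chr1:235109336-235128936, minus strand) encodes the receptor that binds presequences and had 80.3, 75.8 and 83.7 CPM in shPARP1 libraries, against 98.7, 96.1 and 96.9 CPM in shCtrl libraries. All 3 shPARP1 values were below all shCtrl values, and the log2 fold change was -0.28 (SE 0.04, adjusted p = 1.7e-07). TOMM70A (ENSG00000154174, chr3:100363431-100401398, minus strand), the receptor for carrier proteins handed over by cytosolic chaperones, had 36.5, 38 and 39.2 CPM in shPARP1 libraries, against 31.9, 34.3 and 35.3 CPM in shCtrl libraries. Its groups did not overlap, but the lowest shPARP1 library exceeded the highest shCtrl library by little, and the log2 fold change of 0.16 (SE 0.06, adjusted p = 0.023) had the largest adjusted p of the 3. The call was lost without shPARP1 replicate 2 (adjusted p = 0.070), without shPARP1 replicate 3 (adjusted p = 0.107) or without shCtrl replicate 1 (adjusted p = 0.112), and on log2(FPKM + 1) without a filter (adjusted p = 0.0613). The ratio of TOMM20 to TOMM22 in CPM was 0.902, 0.824 and 0.944 in shPARP1 libraries and 4.45, 3.93 and 4.16 in shCtrl libraries. Per length, in FPKM, TOMM22 averaged 39.4 ± 0.844 FPKM in shPARP1 and 9.92 ± 0.621 FPKM in shCtrl (SD, n = 3 each). TOMM20 averaged 21.1 ± 1.06 FPKM in shPARP1 and 24.9 ± 0.118 FPKM in shCtrl, so TOMM22 was the higher of the 2 per length in shPARP1 and the lower in shCtrl.

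The stretches of DNA just before the starts of these genes are shown because TOMM22 and TOMM20 lie at the ends of the range of responses, TOMM34 is among the 4 members that were at least 2-fold higher, and HSPD1 and HSPE1 share one stretch between their starts. They are 250 bases before the RefSeq start on GRCh38.p14, written 5′ to 3′ on the gene's strand: TOMM22 at chr22:38681707-38681956 (plus), TOMM34 at chr20:44960398-44960647 (minus) and TOMM20 at chr1:235128838-235129087 (minus). For HSPE1 it is the 104 bases at chr2:197500275-197500378 (plus), which end before its start and begin after that of HSPD1 on the other strand. In each, GENCODE release 29 puts the gene's outermost start inside or before the stretch, so part of it may be transcribed. Capitals mark the core of NRF1, a factor of nuclear genes for mitochondria (GCGCANGCG on either strand), and the core of ETS factors such as GABPA (CCGGAAG on either strand).
TOMM22: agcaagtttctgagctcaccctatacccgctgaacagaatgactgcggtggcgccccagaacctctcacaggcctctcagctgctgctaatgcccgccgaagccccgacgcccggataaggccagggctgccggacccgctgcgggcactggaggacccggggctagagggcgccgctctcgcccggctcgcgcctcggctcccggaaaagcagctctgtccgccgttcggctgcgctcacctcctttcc
TOMM34: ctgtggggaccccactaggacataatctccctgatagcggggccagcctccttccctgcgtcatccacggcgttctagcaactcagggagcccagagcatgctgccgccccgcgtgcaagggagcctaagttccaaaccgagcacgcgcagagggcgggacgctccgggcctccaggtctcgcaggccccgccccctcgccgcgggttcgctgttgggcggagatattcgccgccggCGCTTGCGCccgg
TOMM20: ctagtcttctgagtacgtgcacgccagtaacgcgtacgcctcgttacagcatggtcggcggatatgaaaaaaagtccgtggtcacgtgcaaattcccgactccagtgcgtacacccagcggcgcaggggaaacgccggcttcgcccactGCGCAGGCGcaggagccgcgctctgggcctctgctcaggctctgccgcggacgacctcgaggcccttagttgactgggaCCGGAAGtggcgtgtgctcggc
HSPD1-HSPE1: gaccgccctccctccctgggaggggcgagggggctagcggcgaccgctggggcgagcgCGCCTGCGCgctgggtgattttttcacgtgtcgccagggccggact
TOMM22, the member with the highest fold change, holds neither core in the bases shown; an ETS core on the other strand lies just after its start. TOMM20, the member called lower, holds both, at -101 and at -22 from its start. TOMM34 holds an NRF1 core at -13, and an ETS core that begins at -4 runs across its start. Between HSPD1 and HSPE1 a single NRF1 core lies at chr2:197500333-197500341, within the windows of both genes.

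Promoter windows from 250 bases before to 50 after the start were found in RefSeq for 35 of the 38 tested members. The 3 without one are TIMM8B, TOMM5 and GRPEL1, and TOMM70A was matched under its newer symbol TOMM70. The NRF1 core was in 13 of 35 member windows (37.1%), in 8.05% of all 27305 windows and in 14.7% of the 11350 windows of tested genes. An ETS core was in 14 member windows (40%), in 10.7% of all and in 18.7% of those of tested genes. The letters AAGATGG of YY1 were in 4 (11.4%, against 6.06% of all), the heat shock element TTCNNGAA in 3 (8.57%, against 7.84%) and CCAAT in 12 (34.3%, against 35.7%). The 28 matched members called higher included 10 with the NRF1 core and 9 with an ETS core. Both cores therefore occurred in member windows more often than in windows at large, as a count of letters without a test. They were not confined to members called higher. Among matched members not called higher, TOMM20 and OXA1L held both cores and TIMM9 the NRF1 core. MTX2, PMPCB and TIMM23B held an ETS core, and TIMM21 held neither. The single NRF1 core between HSPD1 and HSPE1 counts in the windows of both. Whether either core goes with the change after knockdown was not tested. In TIMM10 the heat shock element and an ETS core share letters, and in TOMM34 the NRF1 and ETS cores adjoin. A match says nothing of whether a factor binds there.

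The channel and its small subunits all rose. TOMM40 (ENSG00000130204, chr19:44890569-44903689, plus strand), which encodes the barrel that forms the channel, had 382, 373 and 358 CPM in shPARP1 libraries, against 248, 231 and 223 CPM in shCtrl libraries. Its log2 fold change was 0.66 (SE 0.04, adjusted p = 4.3e-23), with separate groups. TOMM6 had 169, 164 and 165 CPM in shPARP1 libraries, against 99.1, 99.2 and 109 CPM in shCtrl libraries, a log2 fold change of 0.70 (SE 0.04, adjusted p = 5.7e-22). TOMM5 had 26.5, 24.3 and 27.4 CPM in shPARP1 libraries, against 15, 14.2 and 15.6 CPM in shCtrl libraries, a log2 fold change of 0.80 (SE 0.08, adjusted p = 4.4e-13). Both encode small proteins that steady the channel, and in both the groups lay well apart. Per length TOMM6 had the highest level of all members, at 233 ± 3.05 FPKM in shPARP1 and 139 ± 7.39 FPKM in shCtrl (SD, n = 3 each). TOMM7, a small subunit that takes part in holding PINK1 at damaged mitochondria, rose less, with 51.8, 47.3 and 54.3 CPM in shPARP1 and 38.9, 39 and 37.5 CPM in shCtrl and a log2 fold change of 0.41. TOMM40L, a less used relative of the channel gene, had 24.4, 23 and 22.6 CPM in shPARP1 and 19, 15.9 and 17.8 CPM in shCtrl, a log2 fold change of 0.41. In none of these 5 genes did the groups overlap. Reads of TOMM5 and TOMM6 lie in spans that other annotated genes share on the same strand, a pair of unnamed genes over TOMM5 that were called higher and PRICKLE4 over TOMM6, which was called lower (log2 fold change -0.49), and how such reads were counted is not given in the sources used here.

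TOMM34 (ENSG00000025772, chr20:44942130-44960486, minus strand) encodes a protein of the cytosol and outer membrane that holds precursors together with HSP70 and HSP90. It had 103, 101 and 103 CPM in shPARP1 libraries, against 46.1, 43.5 and 49.4 CPM in shCtrl libraries, a log2 fold change of 1.14 (SE 0.05, adjusted p = 2.3e-28). Every shPARP1 library was above 100 CPM and every shCtrl library under 50 CPM. PABPC1L, a gene that overlaps TOMM34 on the opposite strand, was called lower, at 13.4 CPM in shPARP1 and 18.2 CPM in shCtrl, so the pair moved in opposite directions.

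**Figure D2:**
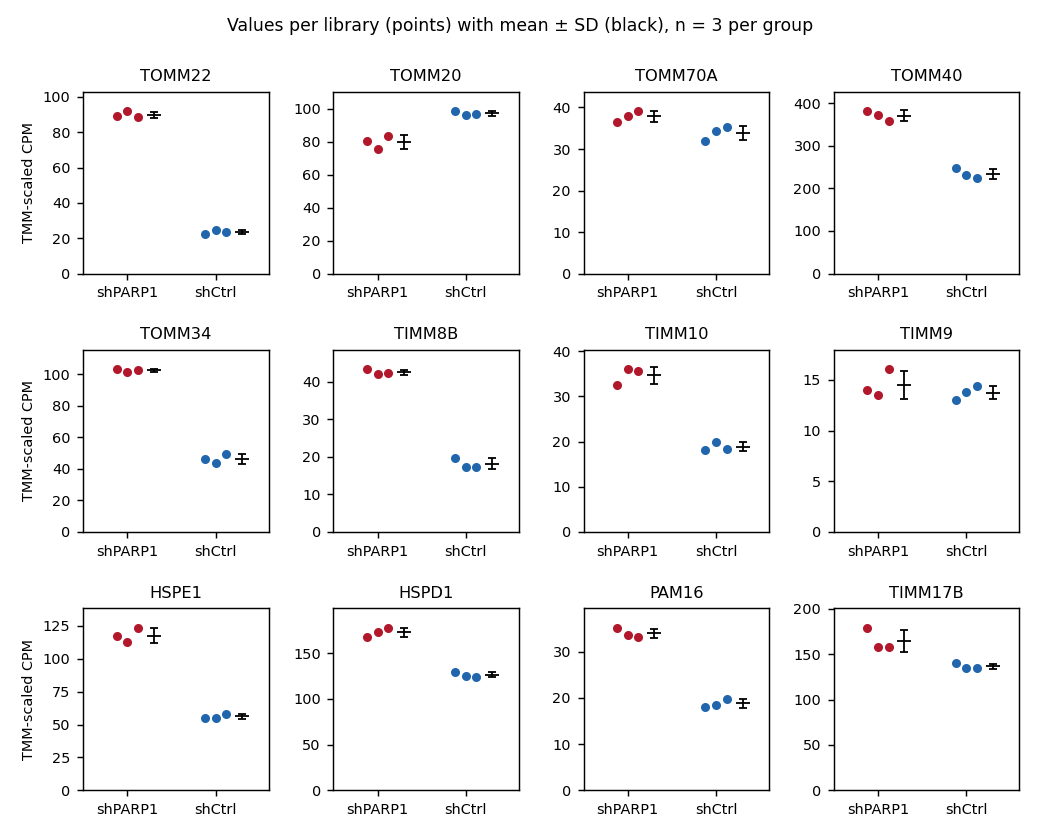
TMM-scaled CPM (y axis, from 0) of 12 import genes in each library, shPARP1 left and shCtrl right; coloured points are libraries and black bars the mean ± SD (n = 3 per group). In TOMM22, TOMM34, TIMM8B and HSPE1 the shPARP1 mean is more than 2 times the shCtrl mean, in TOMM20 the shPARP1 libraries lie below the shCtrl libraries, and in TIMM9 the groups overlap.

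Genes of the SAM complex, which folds barrel proteins into the outer membrane, rose in part. MTX1 (ENSG00000173171, chr1:155208699-155213824, plus strand), an outer subunit, had 61.6, 58.6 and 55.8 CPM in shPARP1 libraries, against 39.1, 38.6 and 38.1 CPM in shCtrl libraries. Its log2 fold change was 0.61 (SE 0.05, adjusted p = 1.1e-14) without overlap of the groups. MTX2, its partner, had 14.7, 15.1 and 15.9 CPM in shPARP1 libraries, against 12.8, 15 and 14.1 CPM in shCtrl libraries. Those groups overlapped, and the log2 fold change of 0.12 (SE 0.09, adjusted p = 0.239) was not called. SAMM50, the core barrel, had 54.4, 53.8 and 53.2 CPM in shPARP1 and 41.1, 38.3 and 41.9 CPM in shCtrl, a log2 fold change of 0.41 with separate groups. THBS3 overlaps MTX1 on the opposite strand by 353 bases and was called lower, at 51.3 CPM in shPARP1 and 77.2 CPM in shCtrl.

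The disulfide relay of the intermembrane space takes in proteins with paired cysteines. CHCHD4, known as MIA40, is its oxidase, and GFER re-oxidises CHCHD4. CHCHD4 had 11, 11.1 and 12.3 CPM in shPARP1 libraries, against 9.44, 7.28 and 8.76 CPM in shCtrl libraries, a log2 fold change of 0.44 (SE 0.10, adjusted p = 2.7e-04). GFER had 43.5, 40.4 and 41.1 CPM in shPARP1 libraries, against 32.4, 33.6 and 28.8 CPM in shCtrl libraries, a log2 fold change of 0.40 (SE 0.06, adjusted p = 2.1e-07). Both genes rose, and in neither did the groups overlap. TMEM43, whose start lies 70 bases from that of CHCHD4 on the other strand, was called lower, at 52.4 CPM in shPARP1 and 65.8 CPM in shCtrl.

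The small TIM chaperones, which carry hydrophobic proteins across the intermembrane space, held several of the larger rises. TIMM8B (ENSG00000150779, chr11:112084800-112086798, minus strand) had 43.3, 42.1 and 42.3 CPM in shPARP1 libraries, against 19.8, 17.4 and 17.4 CPM in shCtrl libraries, a log2 fold change of 1.23 (SE 0.07, adjusted p = 8.3e-23). TIMM8A (ENSG00000126953, chrX:101345659-101349196, minus strand), the gene of deafness-dystonia syndrome, had 13.4, 12.6 and 12.9 CPM in shPARP1 libraries, against 6.18, 7.05 and 6.3 CPM in shCtrl libraries, a log2 fold change of 0.99 (SE 0.10, adjusted p = 2.1e-12). TIMM13 (ENSG00000099800, chr19:2425624-2427894, minus strand), the partner of TIMM8A, had 117, 119 and 117 CPM in shPARP1 libraries, against 67.8, 73.1 and 66.8 CPM in shCtrl libraries. In all 3 genes the groups were far apart, and TIMM13 had a log2 fold change of 0.76 (SE 0.04, adjusted p = 3.7e-22). LMNB2 shares 257 bases with TIMM13 on the same strand and was called higher, at 283 CPM in shPARP1 and 190 CPM in shCtrl. C11orf57 shares 351 bases with TIMM8B on the opposite strand and was called higher (log2 fold change 0.65). How reads of these shared bases were counted is not given in the sources used here. TIMM10 (ENSG00000134809, chr11:57528463-57530803, minus strand) had 32.5, 36 and 35.6 CPM in shPARP1 libraries, against 18.3, 19.998 and 18.5 CPM in shCtrl libraries, a log2 fold change of 0.88 (SE 0.07, adjusted p = 4.3e-16). TIMM9, with which TIMM10 forms a ring, had 14, 13.4 and 16 CPM in shPARP1 libraries, against 13, 13.8 and 14.4 CPM in shCtrl libraries. The TIMM9 groups overlapped, its log2 fold change of 0.08 (SE 0.09, adjusted p = 0.494) was not called, and the ratio of the pair is given below. With length and GC content corrected, TIMM9 was called lower at -0.19 (adjusted p = 0.0451). TIMM10B had 13.1, 12.6 and 13.9 CPM in shPARP1 and 9.82, 12.9 and 10.6 CPM in shCtrl, overlapping groups in which shCtrl replicate 2 reached the shPARP1 range. Its log2 fold change of 0.25 (SE 0.10, adjusted p = 0.0246) lost the call in 7 alternatives besides the test against 1.5-fold. The adjusted p was 0.0525 with DESeq2, 0.178 without shCtrl replicate 1, 0.0852 without shCtrl replicate 3 and 0.0965 without shPARP1 replicate 3.

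In the inner membrane, TIMM22 (ENSG00000177370, chr17:997117-1003671, plus strand), the channel of the carrier pathway, had 63.1, 62.9 and 58.3 CPM in shPARP1 libraries, against 42.2, 42.8 and 43.8 CPM in shCtrl libraries. Its groups were separate, with a log2 fold change of 0.52 (SE 0.05, adjusted p = 7.7e-13). In the TIM23 complex, which receives presequence proteins, 4 of 6 genes rose. TIMM50 (ENSG00000105197, chr19:39480412-39493785, plus strand), the receptor that takes over precursors from the outer membrane, had 206, 203 and 205 CPM in shPARP1 libraries, against 143, 144 and 145 CPM in shCtrl libraries. The spread within its groups was small beside the gap between them, and the log2 fold change was 0.51 (SE 0.04, adjusted p = 4.5e-18). TIMM17A had 35.2, 36.5 and 36.5 CPM in shPARP1 libraries, against 24.3, 26.5 and 28.4 CPM in shCtrl libraries, a log2 fold change of 0.45 (SE 0.07, adjusted p = 6.1e-08). TIMM17B, its paralog, had 179, 157 and 158 CPM in shPARP1 libraries, against 139.9, 135 and 135 CPM in shCtrl libraries, a log2 fold change of 0.27 (SE 0.04, adjusted p = 1.7e-07). In TIMM17B, shPARP1 replicate 1 stood above the other 2, and all 3 were above shCtrl. TIMM23, the channel subunit that names the complex, had 120.1, 125 and 127 CPM in shPARP1 libraries, against 102, 110.3 and 103 CPM in shCtrl libraries. Its log2 fold change of 0.24 (SE 0.04, adjusted p = 1.9e-06) came down to 0.04 (adjusted p = 0.337) with length and GC content corrected. TIMM23B, a near-identical copy, had 4.13, 3.69 and 3.36 CPM in shPARP1 and 3.97, 3.54 and 3.0 CPM in shCtrl and was not called, and reads of the pair may have been split or dropped in counting. PARG, which encodes the enzyme that removes ADP-ribose chains, overlaps TIMM23B on the opposite strand and was called higher, at 9.1 CPM in shPARP1 and 6.44 CPM in shCtrl. TIMM21, which ties TIM23 to TOM and to respiratory chain assembly, had 14.1, 15.8 and 14.9 CPM in shPARP1 and 15.5, 15.9 and 15.7 CPM in shCtrl, with overlapping groups and a log2 fold change of -0.07 that was not called.

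All 6 members placed in the import motor rose. The motor is built on mitochondrial HSP70 and pulls precursors into the matrix with energy from ATP. PAM16 (ENSG00000217930, chr16:4331549-4355607, minus strand), a regulator of the J-protein of the motor, had 35.2, 33.5 and 33.2 CPM in shPARP1 libraries, against 18, 18.6 and 19.9 CPM in shCtrl libraries, a log2 fold change of 0.85 (SE 0.07, adjusted p = 9.9e-16). The readthrough gene CORO7-PAM16, which shares 15357 bases of span with PAM16 on the same strand, was called lower, at 15.5 CPM in shPARP1 and 22.3 CPM in shCtrl (log2 fold change -0.52). GRPEL1 (ENSG00000109519, chr4:7058906-7068197, minus strand), the nucleotide exchange factor of the motor, had 57.3, 61.6 and 60.3 CPM in shPARP1 libraries, against 38.7, 33.5 and 37.7 CPM in shCtrl libraries, a log2 fold change of 0.71 (SE 0.06, adjusted p = 1.6e-16). GRPEL2, its paralog, was the lowest member per length, at 0.933 ± 0.116 FPKM in shPARP1 and 0.607 ± 0.0252 FPKM in shCtrl (SD, n = 3 each). GRPEL2 had 3.79, 4.76 and 4.63 CPM in shPARP1 and 2.84, 2.93 and 3.08 CPM in shCtrl, with separate groups at this low level and a log2 fold change of 0.57 (SE 0.16, adjusted p = 0.00212). TIMM44, which tethers HSP70 to the channel, had 38.8, 39.6 and 37.1 CPM in shPARP1 and 26.9, 26.5 and 28.9 CPM in shCtrl and a log2 fold change of 0.49. HSPA9, the HSP70 itself, had 122, 131 and 132 CPM in shPARP1 libraries, against 101, 105 and 108 CPM in shCtrl libraries, a log2 fold change of 0.30 (SE 0.04, adjusted p = 2.0e-08). Its fold was the smallest of the 6. DNAJC19, a J-protein, had 24.7, 25.2 and 25.2 CPM in shPARP1 and 17.9, 20.3 and 20.6 CPM in shCtrl and a log2 fold change of 0.35. None of these 6 members had overlapping groups.

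In the matrix, both chaperonin genes rose, and 1 of the 3 genes of processing and insertion did. HSPE1 (ENSG00000115541, chr2:197499994-197503457, plus strand), the lid of the chaperonin, had 117, 112 and 123 CPM in shPARP1 libraries, against 55.2, 54.9 and 58.4 CPM in shCtrl libraries, a log2 fold change of 1.07 (SE 0.05, adjusted p = 7.3e-28). HSPD1 (ENSG00000144381, chr2:197486581-197516737, minus strand), the barrel, had 167, 173 and 178 CPM in shPARP1 libraries, against 129, 125 and 125 CPM in shCtrl libraries, a log2 fold change of 0.45 (SE 0.04, adjusted p = 3.3e-15). Both were separate between groups, HSPE1 by the larger margin. The annotated spans of the 2 genes are nested on opposite strands, with all 3464 bases of HSPE1 inside the span of HSPD1, and the strand setting of the authors' counting is not given in the sources used here. The readthrough gene HSPE1-MOB4 was not called, at 2.58 CPM in shPARP1 and 1.88 CPM in shCtrl. PMPCA, the subunit of the processing peptidase that binds precursors, had 132, 126 and 125 CPM in shPARP1 libraries, against 118, 115 and 112 CPM in shCtrl libraries, a log2 fold change of 0.15 (SE 0.04, adjusted p = 0.00104). PMPCB, the catalytic subunit, had 25.2, 26.8 and 30.9 CPM in shPARP1 libraries, against 25.4, 29.2 and 29.2 CPM in shCtrl libraries. Its groups overlapped, with a log2 fold change of -0.02 (95% interval -0.17 to 0.13) that was not called. DNAJC2 overlaps PMPCB on the opposite strand and was called higher, at 14.8 CPM in shPARP1 and 9.54 CPM in shCtrl. OXA1L, which inserts proteins into the inner membrane from the matrix, had 94, 88.8 and 93.3 CPM in shPARP1 libraries, against 92.6, 96.4 and 92.4 CPM in shCtrl libraries. It was not called either, with overlapping groups and a log2 fold change of -0.03 (95% interval -0.11 to 0.06).

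**Figure D3:**
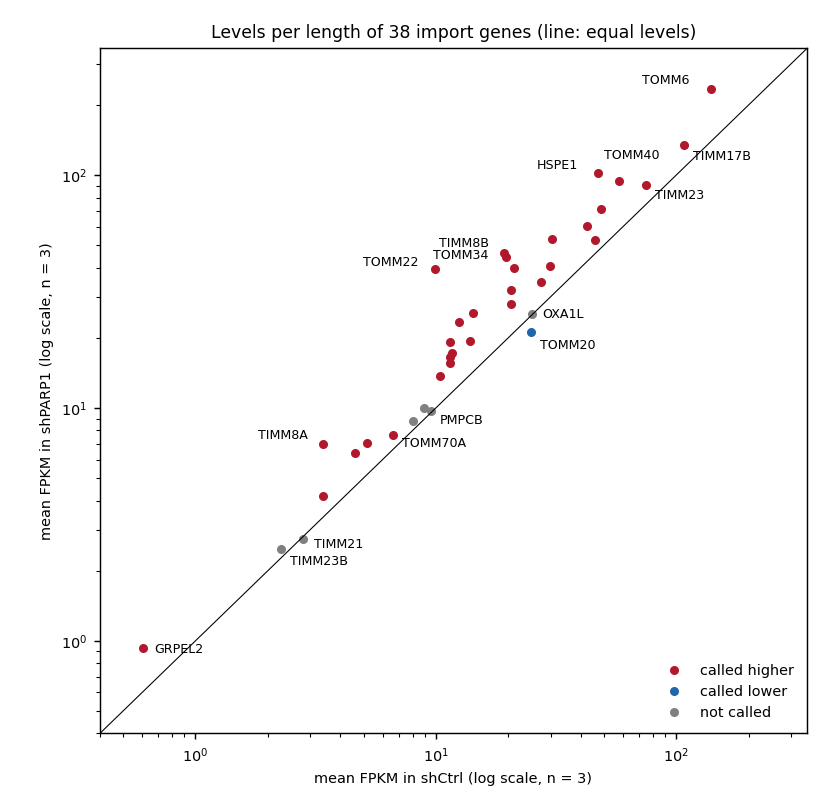
Mean FPKM of the 38 tested import genes in shPARP1 (y axis) against shCtrl (x axis), both on log scales, n = 3 per group; the line marks equal levels and colours give the call. TOMM6 is highest in both groups and GRPEL2 lowest, and TOMM22 lies farthest above the line.

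Per length, the machinery spanned more than 100-fold. In FPKM, which divides by transcript length, TOMM6 was followed by TIMM17B at 134 ± 9.55 FPKM in shPARP1 and 108 ± 1.53 FPKM in shCtrl and, in shPARP1, by HSPE1 at 102 ± 4.87 FPKM in shPARP1 and 47.3 ± 1.6 FPKM in shCtrl (SD, n = 3 each). The third place in shCtrl was that of TIMM23, at 74.6 ± 4.32 FPKM. TOMM22 stood at place 14 of 38 by level in shPARP1 and at place 27 in shCtrl. TOMM20 stood at place 21 in shPARP1 and at place 13 in shCtrl, so the 2 receptors exchanged order. HSPE1 stood at place 3 in shPARP1 and at place 6 in shCtrl, and TIMM8B at place 10 in shPARP1 and at place 18 in shCtrl. TIMM10B, TIMM21, TIMM23B and GRPEL2 were the 4 lowest in both groups. Some neighbours in this order did not differ beyond their spread. In shPARP1, TOMM7 at 40.8 ± 2.85 FPKM, TIMM10 at 39.99 ± 2.29 FPKM and TOMM22 at 39.4 ± 0.844 FPKM were such a run. Summed over the 38 tested members, FPKM was 1446 to 1471 in shPARP1 libraries and 949.8 to 975.45 in shCtrl libraries. The coefficient of variation of CPM within a group was 3.83% in shPARP1 and 4.91% in shCtrl at the median member.

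Genes that work as partners or paralogs were set against each other in each library, as the log2 ratio of their CPM. The 15 pairs were compared with exact two-sided permutation tests over the 6 libraries. There 3 against 3 allow 20 arrangements and no p under 0.1. No pair can therefore pass 0.05, with or without Benjamini-Hochberg adjustment over the pairs. In 11 pairs the ratios of the groups did not overlap, each with an exact p of 0.1, the smallest the design allows. How often pairs of other tested genes separate in this way was not tested, so this count is a description only. After adjustment the permutation p of these pairs was 0.136. The widest difference was in TOMM20/TOMM22, -2.23 on the log2 scale, shPARP1 minus shCtrl. TOMM22/TOMM40, receptor over channel, differed by 1.28, with ratios of 0.233, 0.247 and 0.248 in shPARP1 and 0.0895, 0.106 and 0.104 in shCtrl. Every shPARP1 ratio of this pair was above every shCtrl ratio. TIMM9/TIMM10 had ratios of 0.431, 0.374 and 0.45 in shPARP1 and 0.714, 0.69 and 0.779 in shCtrl, a difference of -0.80. HSPD1/HSPE1 had ratios of 1.43, 1.54 and 1.44 in shPARP1 and 2.35, 2.28 and 2.13 in shCtrl, a difference of -0.62. In both of these pairs every shPARP1 ratio was below every shCtrl ratio. MTX1/MTX2 differed by 0.48, TOMM70A/TOMM20 by 0.45 and TOMM40/TOMM40L by 0.25. TIMM23/TIMM50 differed by -0.27, TIMM13/TIMM8A by -0.24, TIMM8A/TIMM8B by -0.23 and HSPD1/HSPA9 by 0.15. The TIMM8A/TIMM8B groups were barely apart, with log2 ratios of -1.695 in shPARP1 replicate 1 and -1.679 in shCtrl replicate 1. The TIMM8A/TIMM8B difference was -0.13 without replicate 2 of both groups and -0.34 without replicate 1. Ratios overlapped in 4 pairs: TIMM17A/TIMM17B (difference 0.18, exact p = 0.2), PMPCA/PMPCB (0.17, exact p = 0.2), GRPEL1/GRPEL2 (0.14, exact p = 0.3) and CHCHD4/GFER (0.04, exact p = 0.9). The CHCHD4/GFER difference changed sign with the libraries used, at -0.11 without replicate 2 of both groups and 0.16 without replicate 1. For the relay pair the ratios were 0.254, 0.276 and 0.30 in shPARP1 and 0.291, 0.217 and 0.304 in shCtrl.

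**Figure D4:**
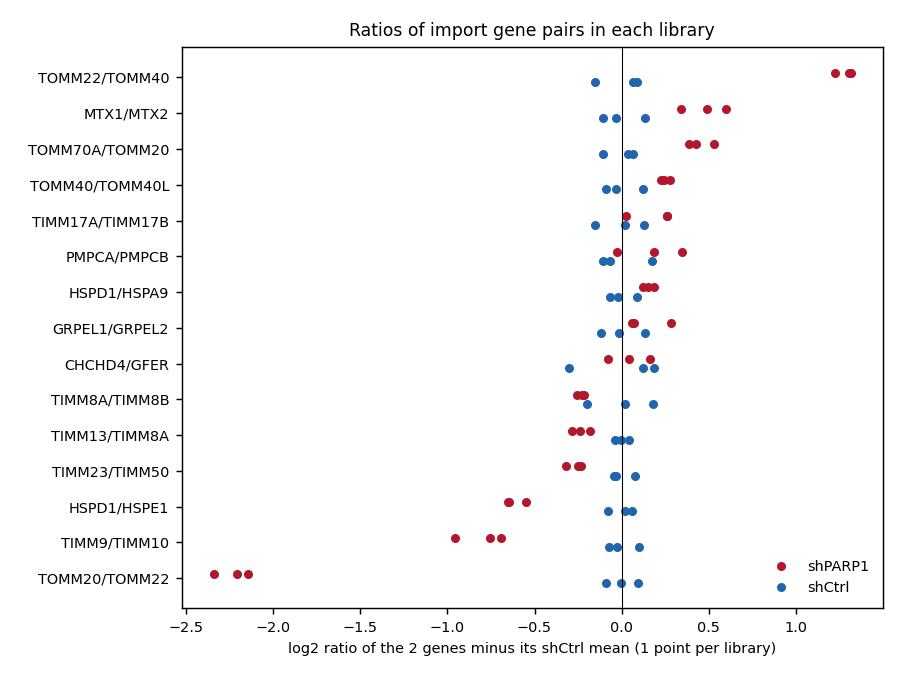
Log2 ratio of CPM within 15 pairs of import genes, less the pair's shCtrl mean (x axis), 1 point per library, shPARP1 drawn above shCtrl in each row. TOMM20/TOMM22 lies about 2.23 to the left in shPARP1 and TOMM22/TOMM40 1.28 to the right, while CHCHD4/GFER overlaps between groups.

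Genes that work beside the import machinery were followed in 6 lists. Beside the counts below, 27.3% of all tested genes were called higher and 28.5% lower. Of 15 tested other import factors, 7 were called higher and 1 lower, with a median log2 fold change of 0.15. COX17, a copper chaperone imported by the relay, had 70.5 ± 0.947 CPM in shPARP1 and 29.4 ± 1.7 CPM in shCtrl (1.26), ROMO1 196 ± 7.81 CPM in shPARP1 and 143 ± 4.79 CPM in shCtrl (0.46), the outer membrane insertase MTCH2 98 ± 3.41 CPM in shPARP1 and 69.2 ± 4.25 CPM in shCtrl (0.50) and LETM1 110.0 ± 2.37 CPM in shPARP1 and 85.3 ± 3.74 CPM in shCtrl (0.37). Of 24 tested substrates of MIA40 and subunits of MICOS, the complex that shapes cristae, 21 were called higher and 2 lower, with a median of 0.53. COX17 is in this list too. After it, in order of p and not of fold, came NDUFA8, CMC2 and CHCHD2. NDUFA8, a subunit of complex I, had 73.8 ± 1.16 CPM in shPARP1 and 34.2 ± 0.742 CPM in shCtrl (1.11). CMC2 had 66.3 ± 1.09 CPM in shPARP1 and 30.7 ± 0.627 CPM in shCtrl (1.11). CHCHD2 had 465 ± 11.8 CPM in shPARP1 and 330.3 ± 8.89 CPM in shCtrl (0.49). IMMT (-0.25), the scaffold of MICOS, and COX19 (-0.18) were the 2 called lower, and they are named here after their values were seen. Of 18 mitochondrial proteases and folding factors, 12 were called higher and 2 lower, with a median of 0.22. The matrix protease LONP1 had 240.4 ± 3.29 CPM in shPARP1 and 144 ± 4.37 CPM in shCtrl (0.74), the prohibitin PHB 345 ± 5.95 CPM in shPARP1 and 261 ± 5.23 CPM in shCtrl (0.40), the protease CLPP 95.2 ± 3.91 CPM in shPARP1 and 68.5 ± 1.35 CPM in shCtrl (0.47) and STOML2 168 ± 4.65 CPM in shPARP1 and 127 ± 5.75 CPM in shCtrl (0.41). Values are means ± SD over 3 libraries per group, and those in parentheses are log2 fold changes.

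In the cytosol, of 19 genes of precursor delivery and import surveillance 13 were called higher and 4 lower, with a median of 0.25. The heat-inducible HSPA1A had 257 ± 8.45 CPM in shPARP1 and 142 ± 7.9 CPM in shCtrl (0.85) and HSPA1B 149 ± 3.93 CPM in shPARP1 and 95.1 ± 5.19 CPM in shCtrl (0.65), near-identical genes whose reads may not have been separated. BTF3, a subunit of the nascent chain complex, had 291 ± 3.21 CPM in shPARP1 and 207 ± 4.43 CPM in shCtrl (0.49), and the J-protein DNAJA1 79.8 ± 2.95 CPM in shPARP1 and 51 ± 2.9 CPM in shCtrl (0.65). HSP90AA1, named after its values were seen, had the largest fold of the list (1.36). The 4 called lower, also named after their values were seen, were ATAD1 (-0.54), UBQLN2 (-0.43), PINK1 (-0.19) and DNAJB6 (-0.15). Of 19 tested genes of the mitochondrial and integrated stress response, 7 were called higher and 5 lower, with a median of -0.01. TRIB3 had 139 ± 2.79 CPM in shPARP1 and 87.6 ± 1.91 CPM in shCtrl (0.67), PPP1R15A 163 ± 0.942 CPM in shPARP1 and 108 ± 1.59 CPM in shCtrl (0.60) and DDIT3, which encodes CHOP, 27.9 ± 0.134 CPM in shPARP1 and 16.8 ± 1.44 CPM in shCtrl (0.73). KIAA0141, now called DELE1, which relays mitochondrial stress to the cytosol, had 27.8 ± 2.22 CPM in shPARP1 and 40.4 ± 1.83 CPM in shCtrl (-0.54). Also called lower were SESN2 (-0.36), GDF15 (-0.21), DDIT4 (-0.20) and SHMT2 (-0.08), and ATF4 was not called (-0.02). These are named after their values were seen. Counts in all 6 lists are set against 27.3% higher and 28.5% lower over all tested genes. Of 14 tested regulators of nuclear genes for mitochondria, 3 were called higher and 3 lower, with a median of -0.01. GABPB1, a subunit of the ETS factor GABP, had 8.7 ± 0.402 CPM in shPARP1 and 5.72 ± 0.296 CPM in shCtrl (0.60) and the nuclear receptor ESRRA 45 ± 1.48 CPM in shPARP1 and 31.4 ± 3.8 CPM in shCtrl (0.52). MYC had 116 ± 2.38 CPM in shPARP1 and 178 ± 1.7 CPM in shCtrl (-0.62) and SP1 30.7 ± 0.903 CPM in shPARP1 and 47.3 ± 0.594 CPM in shCtrl (-0.62). NRF1 itself was not called (0.10), nor was GABPA (0.04), both named here because their motifs were counted above.

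**Figure D5:**
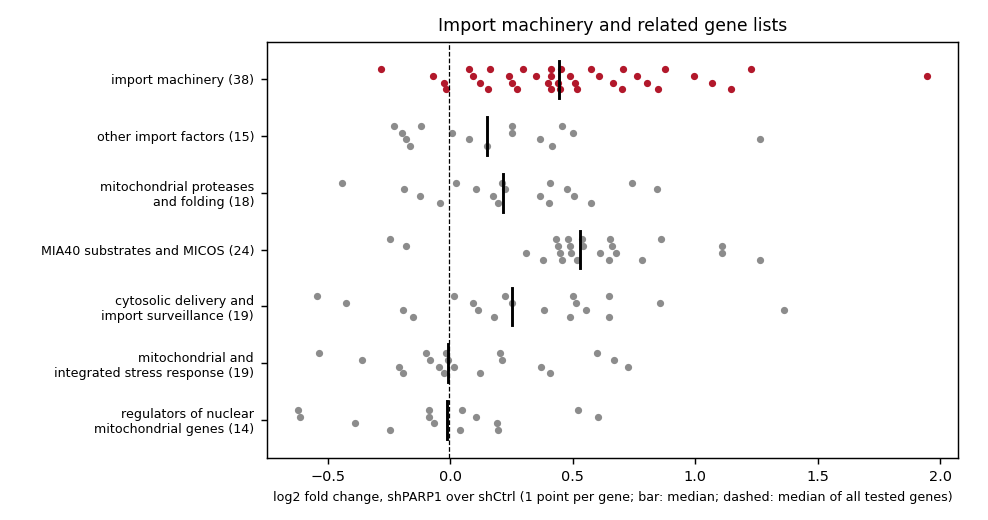
Log2 fold change, shPARP1 over shCtrl (x axis), of the import genes in red and of 6 lists of related genes in grey, 1 point per gene, with list sizes in brackets; thick bars are list medians and the dashed line the median of all tested genes. Medians run from 0.53 in the substrates of MIA40 and MICOS and 0.44 in the import machinery to -0.01 in the stress response and regulator lists.

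The cell type was checked against markers. Of 16 markers of proximal tubule epithelium, 10 were tested, among them PAX8, GGT1 and the keratins KRT8 and KRT18. LRP2, CUBN, SLC34A1, ANPEP and HNF4A, markers of the differentiated tubule, had at most 13 reads in any library. Of the 10 tested, 2 were called higher and 7 lower after knockdown, where 27.3% of all tested genes were called higher and 28.5% lower. The summed level of the 16 was 1953 to 2001 CPM in shPARP1 and 2206 to 2248 CPM in shCtrl. Markers of leukocytes summed to 10.99 to 11.6 CPM in shPARP1 and 14.1 to 16.2 CPM in shCtrl, made up mostly of CD14 and CD68, while CD3E had at most 2 reads. CD14 was called lower (log2 fold change -1.58) and CD68 higher (0.35), so this sum joins opposite changes. Endothelial markers summed to 0.227 to 0.336 CPM in shPARP1 and 0.308 to 0.424 CPM in shCtrl. Fibroblast markers summed to 2.08 to 2.63 CPM in shPARP1 and 5.38 to 6.78 CPM in shCtrl, nearly all from PDGFRB, with PDGFRA at no more than 3 reads. The leukocyte marker PTPRC, the endothelial marker KDR and the fibroblast marker COL1A2 were not among the listed genes, so the sums lack them. The part of any marker in the results was not tested.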

How the data were processed

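RNA of HK-2 cells was measured in 6 libraries, 3 shPARP1 and 3 shCtrl. Polyadenylated RNA was selected, and strand-marking libraries were read from both ends, per the labels' protocols. The authors deposited unnormalized whole-number read counts per gene and FPKM values for the same libraries. The submitters' processing notes name the build GRCh38 and the tools bcl2fastq, TopHat2 and edgeR. How reads were assigned to genes, and whether by strand, is not given in the sources used here, so overlapping genes on opposite strands may share reads.

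From the counts, filterByExpr in edgeR 4.0.16 (R 4.3.3) kept 16040 genes. Library totals were scaled by TMM, and shPARP1 was compared with shCtrl by the robust quasi-likelihood F test, adjusted by Benjamini-Hochberg over all tested genes; this step was tested on simulated data. A total of 24429683 to 32809303 counts makes 3 counts worth 0.0914 to 0.123 CPM. Pairs of libraries in a group differed beyond sampling noise (chi-square over degrees of freedom 2.54 to 4.54), so none was treated as the same library deposited again. FPKM values served to compare levels between genes, and as an alternative with limma 3.58.1.

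Members and lists were chosen with earlier results of these data known. Library values are given for called members with an absolute log2 fold change of at least 0.5 and for the genes of 15 pairs. They are also given for up to 4 others of each role. Up to 4 called genes of each list are named, those with the smallest p, besides those said to be named after their values were seen. Some marker genes are not reported here by name. GENCODE release 29 gave coordinates, exon lengths and GC content on GRCh38; 97.4% of listed genes matched by identifier, and 99.2% of tested genes had length and GC content. RefSeq on GRCh38.p14 gave the promoter sequences. Alternatives were other scalings, filters and tests (DESeq2 1.42.0 and limma among them), FPKM, thinned counts, a length and GC correction, a test against 1.5-fold, a block for the replicate number, and each library left out. Pair ratios were tested with scipy 1.17.1 in Python 3.11.15.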

Additional observations from a re-analysis of the deposited data

How the results depend on the processing

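Of 38 tested members, 30 kept their direction and their side of the threshold under each of the 23 alternatives other than the test against 1.5-fold, and no called member changed sign under any. Members called higher numbered 29 to 31 and those called lower 1, except as follows. In the test against 1.5-fold (glmTreat in edgeR), 12 members were called higher and 0 lower. Over all tested genes 1571 were then called, 609 higher and 962 lower. With length and GC correction, 29 members were called higher and 2 lower, since TIMM9 was then called lower (-0.19). The median log2 fold change of members was 0.473 with library totals only, 0.485 on log2(FPKM + 0.1) and 0.434 to 0.469 when each library was left out in turn. Among members not called, the sign turned for MTX2 with length and GC correction (-0.081), for TIMM23B over the left-out libraries (-0.0067 to 0.19), for PMPCB (0.014 with library totals only, 0.025 on log2(FPKM + 1) with or without a filter, 0.027 on log2(FPKM + 0.1), and -0.10 to 0.049 over the left-out libraries) and for OXA1L (0.0033 with library totals only, 0.016 on each FPKM scale, 0.046 with length and GC correction, and -0.042 to 0.0059 over the left-out libraries). For all of these the cause was not tested. Deviations from the group mean correlated at 0.036, -0.0042 and 0.036 between libraries with the same number. Between libraries with different numbers they correlated at -0.059 to 0.025. With 3 libraries per group, these values cannot tell whether the numbers mark a shared day or culture. With the replicate block, 9060 genes were called over all tested, 4443 higher and 4617 lower. Of the members, 31 were called higher and 1 lower, with a median of 0.445, and no member's call changed. Under the other scalings of the counts, the median of all genes was -0.011 (upper quartile) to 0.023 (library totals only). On log2(FPKM + 0.1) it was 0.051. At these totals the lowest members, TIMM23B and GRPEL2, rest on 68 to 147 reads per library, and their SE of 0.16 sets what can be seen of them.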
